A study of Mus musculus with 8 samples.

Results

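Transcripts of 10 genes of the TGF-beta pathway were measured in mouse liver: the ligands Tgfb1, Tgfb2 and Tgfb3, the receptors Tgfbr1, Tgfbr2 and Tgfbr3, the signal carrier Smad3, the feedback genes Smad7 and Skil, and the secreted target Tgfbi. The genes were chosen by name, with earlier results of these data known. Each was read as the median, on each array, of the probe sets annotated with its symbol alone, and all 10 were found among the 19560 genes of the array. RNA came from whole liver of 8 male mice aged 6 weeks, with 1 Affymetrix array per mouse. Of these mice, 4 were labelled Tak1/Caspase8 LPC double knockout (Tak1/Casp8 hereafter), and the other 4 Tak1 LPC-KO/Rip3-/- (Tak1/Rip3), in which Rip3, product of Ripk3, was lost throughout the body. LPC, which the labels do not spell out, was read as liver parenchymal cells. All 8 mice lacked the kinase TAK1, encoded by Map3k7, in these cells, and no liver with TAK1 intact was analysed here, so a lower value in one group can equally be read as a higher value in the other. The design asked which genes depend on apoptotic rather than necrotic signalling. The sources used here do not name the promoter that drove the deletion. On this reading, non-parenchymal cells of the liver keep Map3k7 and, in the Tak1/Casp8 mice, Casp8. Values are log2 intensities, and a difference always subtracts the mean of the Tak1/Rip3 livers from that of the Tak1/Casp8 livers.

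TGF-beta is secreted in a latent form and, once released, binds the type II receptor Tgfbr2, which recruits and phosphorylates the type I receptor Tgfbr1. That kinase phosphorylates SMAD2 and SMAD3, which enter the nucleus with SMAD4 and switch target genes on or off, among them genes such as Smad7 and Skil that damp the signal. TAK1, missing here from the parenchymal cells, was named as a kinase activated by TGF-beta and lies on a branch of the pathway that runs without SMADs. In liver the pathway is known for the activation of stellate cells into matrix-producing cells and for the growth arrest and death of hepatocytes.

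Both signalling receptors had a promoter entry in the RefSeq table (build GRCm38.p6), and the 250 bases before each start are shown because the pair forms the receptor complex. Sequences run 5′ to 3′. Capitals mark matches, found on either strand, to a set of motifs. The core of the SMAD-binding element was searched as CAGAC. An AP-1 site, which is bound by JUN and FOS proteins, was searched as TGANTCA. The GC box, a site for SP1 and its relatives, was spelled GGGCGG in this search. Last came the TATA box that positions the polymerase, with the letters TATAAA. No matches overlapped.
Tgfbr1, chr4:47352972-47353221, + strand: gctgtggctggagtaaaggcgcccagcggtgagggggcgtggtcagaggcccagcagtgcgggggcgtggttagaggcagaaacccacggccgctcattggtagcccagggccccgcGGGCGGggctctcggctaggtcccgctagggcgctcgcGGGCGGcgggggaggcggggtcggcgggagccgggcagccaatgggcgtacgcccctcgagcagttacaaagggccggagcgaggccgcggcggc
Tgfbr2, chr9:116175364-116175613, - strand: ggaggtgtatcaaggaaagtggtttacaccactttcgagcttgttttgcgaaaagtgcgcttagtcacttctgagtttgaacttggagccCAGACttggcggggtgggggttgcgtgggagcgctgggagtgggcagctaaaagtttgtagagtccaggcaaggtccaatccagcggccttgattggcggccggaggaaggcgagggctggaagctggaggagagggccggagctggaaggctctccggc

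The Tgfbr1 stretch held 2 GC boxes and none of the other motifs, with 74.8% G and C. That of Tgfbr2 held 1 CAGAC, and its G and C content was 58.4%. A second Tgfbr1 entry, chr4:47385966-47386215, held 1 CAGAC. Entries were present for 6 of the 10 genes, 7 in all, and not for Tgfb3, Tgfbr3, Smad7 and Skil. Upstream of Tgfb1 there were 5 GC boxes, upstream of Smad3 there were 2, and Tgfbi had 1 GC box with 2 CAGAC matches. The Tgfb2 stretch held 2 CAGAC matches and the only TATA box of the set. Among all 32851 promoter entries, 42.2% held the SMAD-binding core in the same window, 6.75% the AP-1 site, 32.7% the GC box and 12.4% the TATA box, and the median G and C content was 52.4%. A match describes the letters and not a bound site.

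None of the 10 genes passed the test between the genotypes. In limma, with p-values adjusted over all genes, 0 were higher and 0 lower at an adjusted p under 0.05, against 2.64% of all genes called higher and 4.05% called lower (6.69% in either direction). The nearest to the threshold were Tgfbr1 and Tgfb3, both lower in the Tak1/Casp8 livers. These were the 2 genes with an unadjusted p under 0.05, which 11.8% of all genes reached in the lower direction, and the 2 with an adjusted p under 0.10, as for 6.37% of genes. They were also the 2 in which the 4 values of one group all lay below the 4 of the other, which held for 8.30% of genes in that direction. Of the 10 differences 8 were negative, as were 47.4% over all genes, and their median was -0.14 against 0.01 over all genes. The RNA is from whole tissue, so fewer cells of a type and less RNA per cell cannot be told apart. Levels are not compared between genes, since different probes have different brightness.

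**Figure D1:**
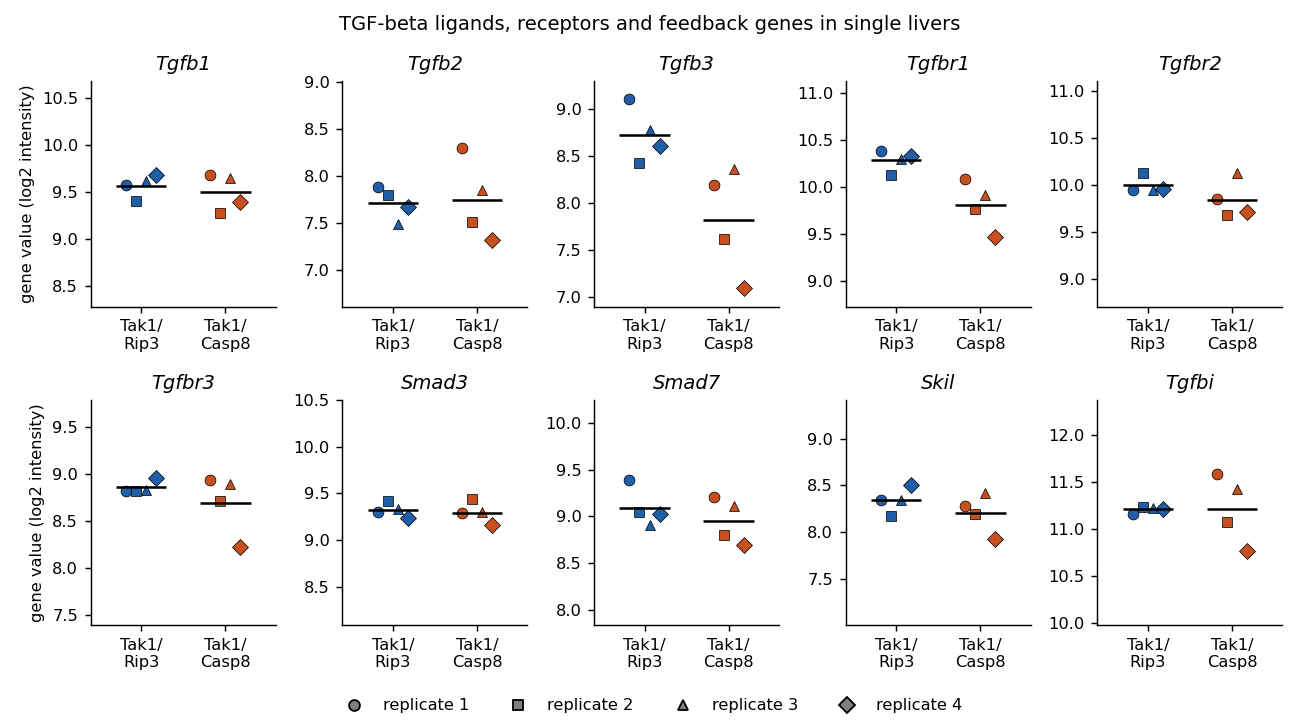
Gene value (log2 intensity) of each of the 10 genes in each liver, Tak1/Rip3 in blue and Tak1/Casp8 in orange, with a marker shape per replicate number and a line at the mean of 4. All panels have the same height in log2 units, and the groups are separate for Tgfb3 and Tgfbr1 and overlap for the other 8 genes.

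Among the ligands, Tgfb3 showed the largest separation of the 10 genes. It encodes the TGF-beta isoform known mainly from mesenchymal tissue and from palate development. Its values were 8.19, 7.61, 8.36 and 7.09 in Tak1/Casp8 replicates 1 to 4 and 9.10, 8.42, 8.77 and 8.60 in Tak1/Rip3 replicates 1 to 4. The groups did not overlap, although the highest Tak1/Casp8 value (8.36) lay just under the lowest Tak1/Rip3 value (8.42). The mean was 7.81 ± 0.58 (SD, n = 4) against 8.72 ± 0.29 (SD, n = 4), a log2 difference of -0.91 ± 0.26 (SE) or 1.88-fold, with a 95% interval of -1.48 to -0.33 and a limma adjusted p of 0.0672. The call depended on the analysis: over 16 alternatives the difference stayed between -1.09 and -0.67 and the adjusted p between 0.0272 and 0.177, under 0.05 in 4 of them. Without Tak1/Casp8 replicate 4, the lowest liver, the difference was -0.67, and without replicate 3 of that group it was -1.09 with a limma adjusted p of 0.0403.

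Tgfb1, the isoform most studied in fibrosis and immune regulation, was 9.68, 9.28, 9.65 and 9.39 in Tak1/Casp8 replicates 1 to 4, and 9.57, 9.40, 9.62 and 9.68 in those of Tak1/Rip3. The groups overlapped almost completely. The difference was -0.07 ± 0.12 (SE, 95% interval -0.33 to 0.19, limma adjusted p = 0.801), and its sign changed when only the brightest probe set was read (0.10). Tgfb2, the isoform that binds the type II receptor weakly without betaglycan, read 8.30, 7.51, 7.85 and 7.32 against 7.88, 7.80, 7.49 and 7.67. Its Tak1/Casp8 values lay on both sides of the other group, with replicate 1 the highest and replicate 4 the lowest of all 8 livers. The difference of 0.04 ± 0.19 (SE, interval -0.39 to 0.46, limma adjusted p = 0.946) took either sign when single livers were left out, -0.149 to 0.178.

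The type I receptor Tgfbr1, the kinase that phosphorylates SMAD2 and SMAD3, was the nearest to the threshold. Tak1/Casp8 replicates 1 to 4 gave 10.08, 9.76, 9.91 and 9.47, and Tak1/Rip3 replicates 1 to 4 gave 10.38, 10.13, 10.30 and 10.33. Each Tak1/Casp8 liver lay below each Tak1/Rip3 liver, although the highest Tak1/Casp8 value (10.08) lay just under the lowest Tak1/Rip3 value (10.13). The means were 9.81 ± 0.26 and 10.28 ± 0.11 (SD, n = 4 each), a log2 difference of -0.48 ± 0.13 (SE) or 1.39-fold, with an interval of -0.77 to -0.19 and a limma adjusted p of 0.0590. Across the same 16 alternatives the difference ran from -0.57 to -0.37 and the adjusted p from 0.0292 to 0.153, under 0.05 in 4. One of the 4 was the fit without Tak1/Casp8 replicate 1 (-0.57, limma adjusted p = 0.0377).

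For the type II receptor Tgfbr2, which binds the ligand, the values were 9.85, 9.68, 10.13 and 9.71 in Tak1/Casp8 and 9.95, 10.13, 9.95 and 9.96 in Tak1/Rip3 livers. Of the Tak1/Casp8 livers, 3 lay below the other group and replicate 3 matched its highest value. The difference of -0.15 ± 0.11 (SE, interval -0.41 to 0.10) did not pass (limma adjusted p = 0.492). Tgfbr3, or betaglycan, the co-receptor that presents ligand to the type II receptor, gave 8.93, 8.71, 8.89 and 8.22 against 8.82, 8.82, 8.83 and 8.96. Only Tak1/Casp8 replicate 4 stood far from the rest. The difference was -0.17 ± 0.15 (SE, interval -0.50 to 0.16, limma adjusted p = 0.564), and -0.02 without that liver.

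Smad3, the SMAD that carries the signal to DNA, spanned the narrowest range of the 10 over the 8 livers, 9.16 to 9.44. It read 9.29, 9.44, 9.30 and 9.16 in Tak1/Casp8 and 9.30, 9.42, 9.33 and 9.24 in Tak1/Rip3 livers. The Tak1/Rip3 values lay inside the range of the other group, and the difference was -0.03 ± 0.09 (SE, interval -0.23 to 0.18, limma adjusted p = 0.915), with a sign that turned under quantile normalisation (0.005). Smad7, the inhibitory SMAD that blocks the type I receptor and directs it to degradation, gave 9.21, 8.80, 9.11 and 8.70 against 9.39, 9.05, 8.91 and 9.03. These values overlapped too, at a difference of -0.14 ± 0.14 (SE, interval -0.46 to 0.18, limma adjusted p = 0.636).

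Skil encodes SnoN, a corepressor that damps the signal and is itself a target of it. Its values of 8.28, 8.20, 8.42 and 7.93 in Tak1/Casp8 and 8.35, 8.18, 8.35 and 8.50 in Tak1/Rip3 livers overlapped, apart from the low Tak1/Casp8 replicate 4. The difference was -0.14 ± 0.12 (SE, interval -0.41 to 0.13, limma adjusted p = 0.569). For both Smad7 and Skil the sign was the opposite with the brightest probe set, at 0.041 and 0.10.

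Tgfbi, a secreted matrix protein named for its induction by TGF-beta, had equal means and unequal spread. The Tak1/Casp8 livers gave 11.59, 11.08, 11.43 and 10.77, and the Tak1/Rip3 livers 11.16, 11.24, 11.23 and 11.22. All 4 Tak1/Rip3 values sat inside the range of the other group. The means were 11.22 ± 0.37 (SD) and 11.21 ± 0.03 (SD, n = 4 each), a difference of 0.00 ± 0.16 (SE, interval -0.35 to 0.36, limma adjusted p = 0.996). For 8 of the 10 genes, all but Tgfb3 and Tgfbr1, the 95% interval lay between -0.50 and 0.50.

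**Figure D2:**
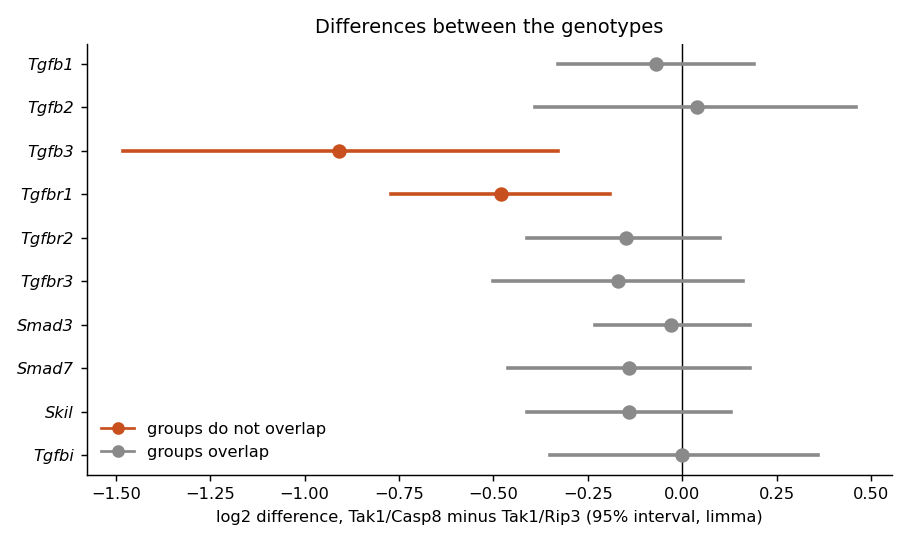
Log2 difference of each gene, Tak1/Casp8 minus Tak1/Rip3, as a point with its 95% interval from limma (4 livers per group), orange where the groups do not overlap and grey where they do. Tgfb3 (-0.91) and Tgfbr1 (-0.48) have intervals wholly below 0, and the other 8 intervals include 0.

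Members of one role were set against each other within each liver, as a log2 ratio compared between the groups over 6 pairs, with an exact two-sided permutation test of the livers whose smallest possible p is 0.0286. The pairs were chosen after the values had been seen, and so describe these livers. The ratio of Tgfb3 to Tgfb1 was lower in Tak1/Casp8 livers by -0.84 on the log2 scale (exact p = 0.0286, 0.0571 after Benjamini-Hochberg adjustment over the 6). It was -1.49, -1.67, -1.28 and -2.30 in Tak1/Casp8 against -0.47, -0.98, -0.86 and -1.08 in Tak1/Rip3 livers, with no overlap. The ratio of Tgfb3 to Tgfb2 differed by -0.94 with the same exact p and adjusted value, and that of Tgfb1 to Tgfb2 by -0.10 (exact p = 0.629, adjusted 0.754). Among the receptors, the ratio of Tgfbr1 to Tgfbr3 differed by -0.31 (exact p = 0.0286, adjusted 0.0571). Tgfbr1 against Tgfbr2 gave -0.32 (exact p = 0.0857, adjusted 0.129), and Tgfbr2 against Tgfbr3 gave 0.02 (exact p = 0.943, adjusted 0.943). No pair passed 0.05 after adjustment. Since the smallest possible p is 0.0286, no pair could pass alone after adjustment over 6 pairs. Pairs of a role also share genes, so this outcome cannot decide whether a ratio differed.

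The single probe sets, each about the size of an exon, showed how evenly these differences ran along a transcript. The 10 genes held 122 probe sets, 8 to 17 each, and 0 passed a limma test adjusted over all 223771 probe sets, where 1.63% passed. An unadjusted p under 0.05 was reached by 16 of the 122 (13.1%) against 15.5% of all probe sets. For Tgfb3 10 of 10 were lower in Tak1/Casp8 livers, by -1.81 to -0.11, and 6 had an unadjusted p under 0.05 (lowest limma adjusted p = 0.0730). For Tgfbr1 13 of 13 were lower, by -0.75 to -0.14, and 8 had an unadjusted p under 0.05 (lowest limma adjusted p = 0.116). Of the 8179 genes with 10 or more probe sets, 4.46% were lower in every one. Tgfb3 and Tgfbr1 stood out by their gene values, which are medians of these same probe sets in the same livers. Their probe set counts are therefore not separate evidence of a difference. The 2 Tgfb3 probe sets nearest 0 were the dimmest of the gene, with mean levels of 2.86 and 6.36 where the other 8 lay between 7.28 and 9.02. The one at -1.81 rested on a single liver, Tak1/Casp8 replicate 2 at 3.20, against 7.86 to 8.55 in the other 3 of that group. The Tgfbr1 probe sets at -0.75 and -0.72 leaned on Tak1/Casp8 replicate 4, which read 8.50 and 7.36. The others of that group read 10.04 to 10.08 and 9.23 to 9.57.

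In the other genes the probe sets lay on both sides of 0. Tgfb1 had 5 lower and 4 higher, Tgfb2 had 7 and 6, and Tgfbi had 8 and 9. The highest difference was that of a Tgfb2 probe set at 0.80, whose mean level of 6.35 lay under the arrays' lower quartile (6.47 to 6.52). It leaned on Tak1/Rip3 replicate 2 at 4.53, against 6.05 to 6.91 in the others of that group. Tgfbr2 had 8 lower and 2 higher, Tgfbr3 had 14 and 3, Smad3 had 10 and 3, Smad7 had 6 and 2, and Skil had 9 and 3. In Tgfbr3 and in Skil 1 probe set each had an unadjusted p under 0.05.

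**Figure D3:**
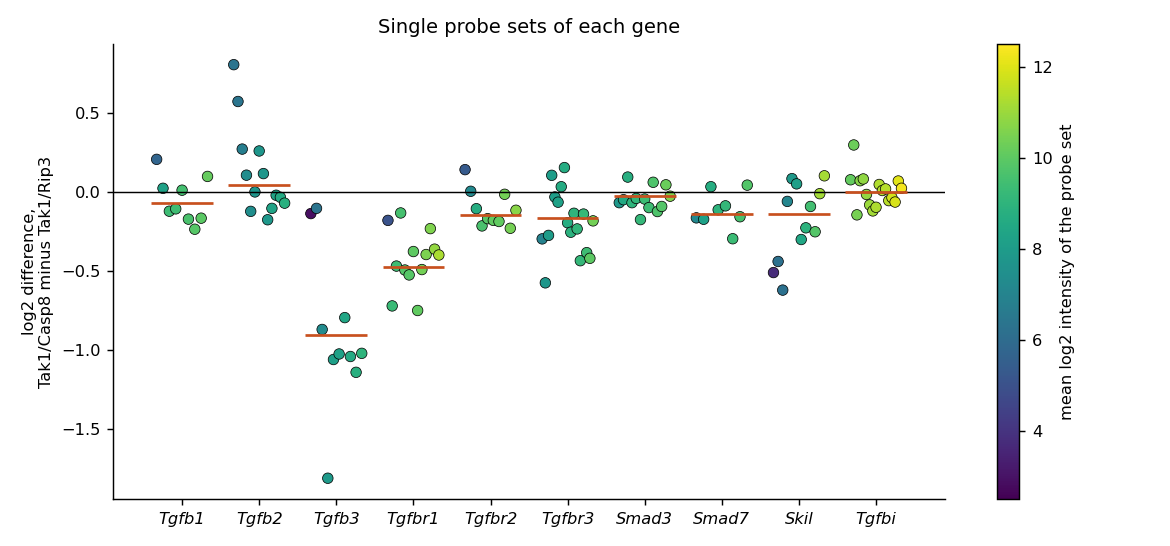
Log2 difference, Tak1/Casp8 minus Tak1/Rip3, of each of the 122 probe sets of the 10 genes, coloured by mean log2 intensity over the 8 arrays, with an orange line at the gene value's difference. Each of the 10 Tgfb3 and 13 Tgfbr1 probe sets lies below 0, and those of the other genes lie on both sides.

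The 10 genes also shared an order among the Tak1/Casp8 livers, seen after the values had been read. Replicates 1 and 3 were both above replicates 2 and 4 in 9 of the 10, all but Smad3, an order that 16.4% of all genes showed. Replicate 4 was the lowest of its group in 8 of the 10, and in 23.4% of all genes. Its deviation from the mean of the 8 livers was -1.18 for Tgfb3, -0.57 for Tgfbr1, -0.55 for Tgfbr3 and -0.44 for Tgfbi. This liver had the lowest mean correlation with its own group (0.985 across genes), followed by Tak1/Rip3 replicate 2 (0.987), and in a fit with array weights they had weights of 0.455 and 0.487, the other 6 arrays 1.09 to 1.66. With both left out, Tgfb3 differed by -0.77 (limma adjusted p = 0.0680) and Tgfbr1 by -0.42 (limma adjusted p = 0.0542).

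The spread was wider in the Tak1/Casp8 group for 10 of the 10 genes, and for 52.4% of all genes. Without replicate 4 it was still wider for 9 of the 10, against 40.2% of all genes. The ratio of the SDs was 10.6 for Tgfbi, 4.80 for Tgfbr3, 2.52 for Tgfb2, 2.44 for Tgfbr1 and 1.99 for Tgfb3, and lowest for Smad7 (1.18). A ratio over 3 was found in 2 of the 10 genes and in 6.90% of all genes. Without replicate 4 the ratio was 1.75 for Tgfbr3 and 7.61 for Tgfbi, and Tgfbi alone stayed over 3, against 4.78% of all genes. The genes are read from the same livers, so these counts are not independent of each other.

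By pattern over the 8 livers, the genes most like Tgfb3 were Olfml3, a secreted glycoprotein, Ccdc3, a secreted coiled-coil protein, and Mmp2, a gelatinase that degrades matrix. Their deviations differed from those of Tgfb3 by a mean of 0.082, 0.123 and 0.126 log2 units per liver, against a median of 0.513 over all genes. Their own group differences were -0.77, -0.82 and -0.92, a direction that the choice by pattern fixes, so no test is given. Nearest to Tgfbr1 were Selenon, a selenoprotein of the endoplasmic reticulum, Loxl3, a lysyl oxidase that cross-links matrix, and Arhgef25. Their mean distances were 0.041, 0.054 and 0.058 against a median of 0.297. The group differences, fixed in direction in the same way, were -0.40, -0.37 and -0.57. The likeness holds for the median over probe sets: with only the brightest probe set read, Mmp2 differed by -0.17, Arhgef25 by -0.09 and Selenon by 0.341, and with the mean over probe sets Mmp2 differed by -0.57.

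**Figure D4:**
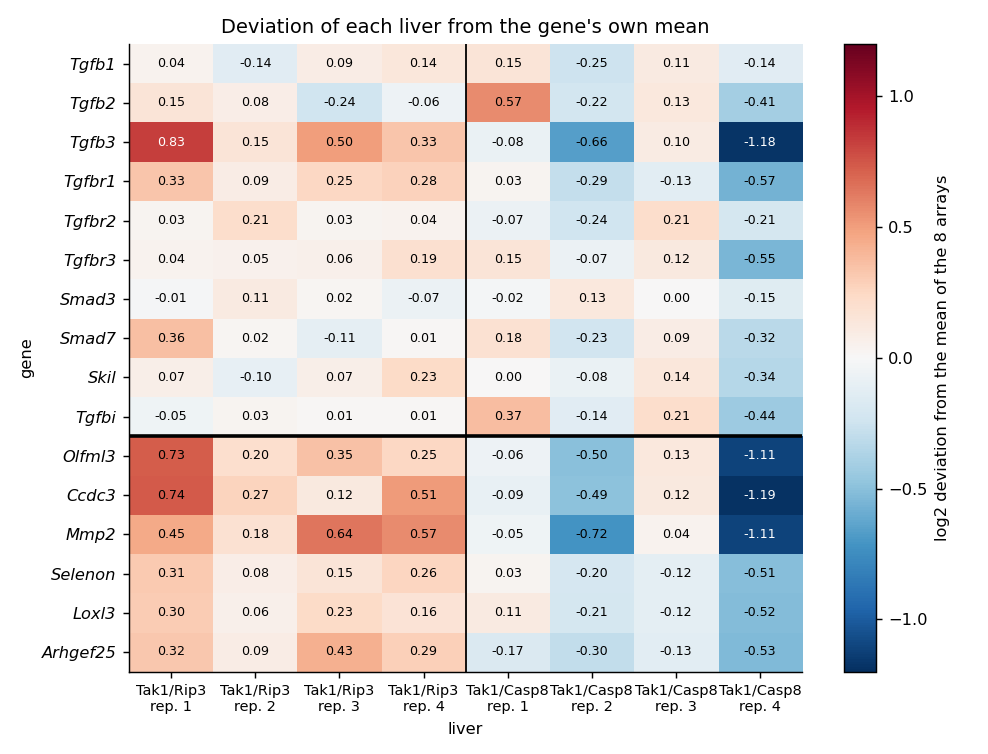
Deviation of each liver (columns) from the gene's mean over the 8 arrays, in log2 units, for the 10 genes above the line and, below it, the 3 genes nearest in pattern to Tgfb3 and the 3 nearest to Tgfbr1. Tak1/Casp8 replicate 4 has the lowest value in most rows, down to -1.18 for Tgfb3 among the 10.

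Beyond the 10 genes, 86 others of the pathway were measured in 6 lists. Of these 3 passed as higher and 4 as lower in Tak1/Casp8 livers, 8.14% against 6.69% of all genes, with a median difference of -0.08 against 0.01. The largest measured difference was that of Bmp7, a bone morphogenetic protein known for opposing TGF-beta in fibrosis models, which fell in Tak1/Casp8 livers relative to Tak1/Rip3. It read 6.74, 6.82, 6.32 and 7.01 against 8.32, 8.69, 8.02 and 8.22, 3.01-fold lower (-1.59 ± 0.17 SE, limma adjusted p = 0.000847). The groups did not overlap, but the Tak1/Casp8 values lie near the arrays' lower quartile (6.47 to 6.52), where signal and background cannot be told apart, so the size of the fold is uncertain. Bmp6, the endothelial ligand that drives hepcidin in hepatocytes, rose 1.63-fold (0.71 ± 0.13 SE, limma adjusted p = 0.0126), with 9.17, 8.58, 8.93 and 8.90 against 8.40, 8.16, 8.03 and 8.16. Both held under all 16 alternatives. Gdf2, or BMP9, a ligand made in the liver, differed by -0.47 (limma adjusted p = 0.0705). The list of BMPs and their receptors had 1 called higher and 1 lower of 18, with a median of -0.03.

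Among 12 corepressors and turnover factors 1 rose and 1 fell, and the median was 0.05. Bambi, a decoy receptor that lacks the kinase domain, was 1.97-fold lower in Tak1/Casp8 livers (-0.98 ± 0.12 SE, limma adjusted p = 0.00138) and passed under all 16 alternatives. Its values were 7.25, 7.20, 7.13 and 7.17 against 8.45, 8.13, 8.19 and 7.90, with no overlap. Tgif1, a SMAD corepressor, was 1.46-fold higher (0.55 ± 0.11 SE, limma adjusted p = 0.0188), at 9.86, 9.52, 9.94 and 9.65 against 9.17, 9.08, 9.34 and 9.19. It passed in 10 of 16 alternatives and was not called with the mean over probe sets (0.36, limma adjusted p = 0.0872), with the brightest probe set (0.36, limma adjusted p = 0.142), or without Tak1/Casp8 replicate 1 or 3 or Tak1/Rip3 replicate 1 or 4 (0.0517 to 0.0583). Pmepa1, a target that in turn sequesters SMADs, differed by -0.51 (limma adjusted p = 0.0690). Of the 6 other SMADs none passed, with 0 higher and 0 lower in limma, 1 lower at an unadjusted p under 0.05, and a median of 0.06. The 3 with the smallest p were Smad5 at -0.36, the common partner Smad4 at 0.13 and the inhibitory Smad6 at 0.08 (limma adjusted p = 0.133, 0.534 and 0.766).

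Of 25 measured target genes 1 rose and 1 fell. Nox4, an NADPH oxidase that TGF-beta is known to induce, was 2.04-fold higher in Tak1/Casp8 livers (1.03 ± 0.18 SE, limma adjusted p = 0.00788), with 9.00, 8.70, 9.07 and 8.38 against 7.98, 7.83, 7.36 and 7.84. It passed under all 16 alternatives. Timp3, an inhibitor of metalloproteinases, was 1.97-fold lower (-0.98 ± 0.22 SE, limma adjusted p = 0.0265), with 10.09, 9.29, 10.30 and 9.25 against 10.77, 10.67, 10.66 and 10.73. Timp3 passed in 9 of 16 alternatives and was not called without Tak1/Casp8 replicate 2 or without any 1 of the 4 Tak1/Rip3 livers (limma adjusted p = 0.0514 to 0.0764), nor without both least correlated livers (0.0747) or with the brightest probe set (0.103). Junb, an early response gene, differed by 0.43 (limma adjusted p = 0.0731). The median of the targets was -0.24, and 20 of the 25 differences were negative, against 47.4% of all genes.

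None of 15 genes of latency and activation passed, with 0 higher and 0 lower in limma, although 1 higher and 7 lower had an unadjusted p under 0.05. Over all genes 11.8% had such a p in the lower direction. The median of the 15 was the lowest of the 6 lists at -0.31, and 13 of 15 differences were negative, against 47.4% of all genes. These genes are read from the same livers, so the counts are not independent of each other. Ltbp3 and Ltbp4, which tether latent TGF-beta to the matrix, differed by -0.37 each (limma adjusted p = 0.0943 and 0.132). Lrrc32, which holds it on cell surfaces, differed by -0.39 (limma adjusted p = 0.0966). In the list of 10 activins and follistatins 1 fell and 0 rose, and the median was -0.07. The called gene was Fstl1, a secreted follistatin-like glycoprotein, at 1.70-fold lower (-0.76 ± 0.18 SE, limma adjusted p = 0.0285), with 9.98, 9.40, 9.68 and 9.08 against 10.46, 10.14, 10.22 and 10.37. It passed in 11 of 16 alternatives and was lost without Tak1/Casp8 replicate 2 or without Tak1/Rip3 replicate 1, 3 or 4 (limma adjusted p = 0.0583 to 0.0880), and with the brightest probe set (0.0641). Inhbe, an activin subunit of hepatocytes, differed by -0.70 (limma adjusted p = 0.101), and the receptor Acvr2b by 0.27 (limma adjusted p = 0.172).

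**Figure D5:**
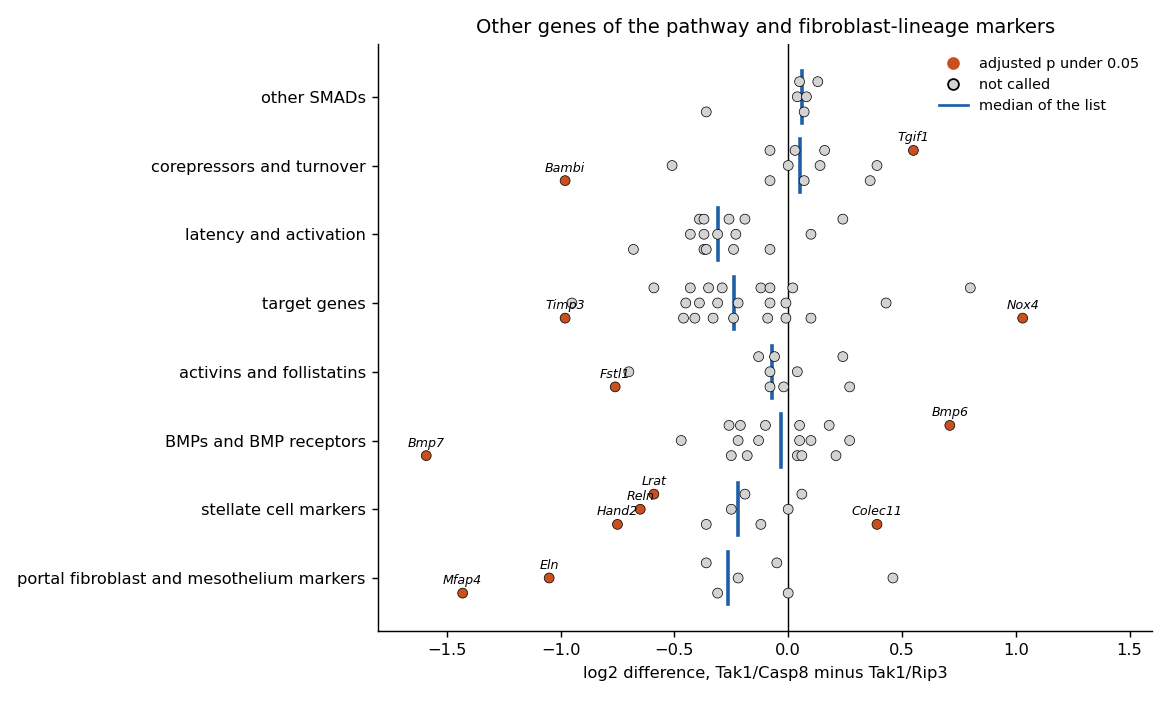
Log2 difference, Tak1/Casp8 minus Tak1/Rip3, of each measured gene in 6 pathway lists and 2 marker lists, one point per gene, orange and named where the limma adjusted p was under 0.05, with a blue line at each list's median. Latency and activation genes (median -0.31) and target genes (-0.24) lie mostly below 0, as do markers of stellate cells (-0.22) and of portal fibroblasts and mesothelium (-0.26). Of the marker lists not drawn, those of bile duct (-0.30) and of B and plasma cells (-0.40) had lower medians, and the rest had higher ones. Of the 5 B and plasma cell markers, 2 had mean levels under the arrays' lower quartile.

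Some markers of the cells known to make much of the liver's matrix were also called. Over all genes, 4.05% were called lower and 2.64% higher. Of 10 stellate cell markers 3 fell, the retinol acyltransferase Lrat (-0.59), the transcription factor Hand2 (-0.75) and Reln (-0.65), with limma adjusted p of 0.0123, 0.00880 and 0.0345, and Colec11 rose by 0.39 (limma adjusted p = 0.0390, named after its value was seen). The count of 3 was 2 with the brightest probe set, without Tak1/Casp8 replicate 2, without any 1 Tak1/Rip3 liver, and without both least correlated livers. The mean of that list was 9.59 to 9.85 in Tak1/Casp8 and 9.87 to 9.96 in Tak1/Rip3 livers, without overlap but with a narrow gap. Of its 10 differences 7 were negative. Among 8 markers of portal fibroblasts and mesothelium the matrix genes Mfap4 (-1.43, limma adjusted p = 0.0214) and Eln (-1.05, limma adjusted p = 0.000939) fell and 0 rose. Gas6 went the other way without passing (0.46, limma adjusted p = 0.0927). The other 7 differences were negative, some of them close to 0. Over both lists, 12 of the 18 markers did not pass. The mean of the portal fibroblast and mesothelium list was 7.95 to 8.43 against 8.43 to 8.80, with Tak1/Casp8 replicate 4 the lowest at 7.95. Neither Mfap4 nor Eln was called when only the brightest probe set was read. Of the 2 calls 1 was lost without Tak1/Casp8 replicate 2 or without Tak1/Rip3 replicate 1, 3 or 4. Dcn stands in both the stellate list and that of latency and activation. The part of these cells in the differences of Tgfb3, Tgfbr1 and the pathway lists was not tested.

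The 8 hepatocyte markers, of which 0 passed in limma (1 at an unadjusted p under 0.05), had list means of 12.46 to 12.67 on arrays whose medians were 8.06 to 8.16. Alb had means of 13.91 in Tak1/Casp8 and 13.95 in Tak1/Rip3 livers, and Ass1, with 1 probe set, 7.14 and 7.05. Whether values as bright as those of Alb can still show a change was not tested. The 8 endothelial and 8 Kupffer cell and macrophage markers also had 0 called in limma (2 and 1 at an unadjusted p under 0.05), with medians of -0.01 and 0.11. Bile duct markers had 1 higher and 1 lower of 7, those of monocytes and neutrophils 1 higher of 8, and those of B and plasma cells 1 higher and 2 lower of 5. The 2 lower, Cd79a (5.09 against 6.47) and Ms4a1 (4.89 against 6.00), had mean levels over the 8 arrays under the lower quartile. Such levels cannot be told from background. T and NK cell, platelet and erythroid markers had 0 called in limma, and 2, 1 and 1 at an unadjusted p under 0.05. Both genes deleted in one group alone were lower there: Casp8 was lower in Tak1/Casp8 livers (-1.31 ± 0.11 SE, limma adjusted p = 0.000123), and Ripk3 was lower in the Rip3 knockouts (0.98 ± 0.17 SE, limma adjusted p = 0.00782), a call lost with the brightest probe set (-0.036, limma adjusted p = 0.954). Map3k7, targeted in both groups, differed by -0.08 ± 0.10 (SE, limma adjusted p = 0.695), which cannot check its label without a TAK1-intact liver.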

How the data were processed

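Liver RNA of 8 mice was hybridised to 1 Affymetrix array each, and groups follow the genotype labels. The values as deposited are on a log2 scale of probe intensity, and the submitters' processing notes name RMA, without a version. RMA aligns the arrays, so a shift shared by most genes is largely removed and differences near background are compressed. Arrays have no depth, and their number, 4 per group, limits the precision. Of 223771 probe sets, 206316 carried 1 symbol in the platform's annotation, 3734 more than 1 and 13721 no symbol. For names, 2571 symbols were updated through a RefSeq table of assembly GRCm38.p6, and 19456 of 19560 symbols matched it. Probe sets with several symbols or none were not used. Dim genes were kept.

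The gene value is the median over its probe sets. The test was limma 3.58.1 (lmFit and eBayes, two-sided, R 4.3.3) with the group as the only term over all 8 arrays, p-values were adjusted by Benjamini-Hochberg across the whole table, and a gene was called under 0.05. It was also run on simulated arrays with known changes, with noise drawn separately for each gene. No effect shared by the genes of a liver was simulated, so that run cannot show how the test fares with one. The pairs used an exact permutation test in scipy 1.17.1. Figures were drawn with matplotlib 3.10.9 (Python 3.11.15). The labels give no litter, cage or scan batch, so none was tested, and anything that differed along with genotype cannot be told apart from genotype. The labels number the mice separately. Sample titles also open with a running number, lower in every Tak1/Rip3 than in every Tak1/Casp8 liver, so its order follows genotype. What that number stands for is not stated. The limma p-values set a group difference against the spread within the groups of these 8 livers, which eBayes moderates over all genes.

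The genes and lists were chosen with earlier results of these data known. Named are the 10 genes, the 3 targeted genes, the 3 genes of each pathway list with the smallest adjusted p, the 3 genes most like each of Tgfb3 and Tgfbr1 (smallest mean absolute difference of deviations over the arrays), and up to 3 markers of a cell type list. The 11 marker lists held 82 genes, of which 78 were measured. Further median differences were 0.03 for hepatocyte, -0.30 for bile duct, 0.21 for monocyte and neutrophil, -0.10 for T and NK cell, -0.40 for B and plasma cell, -0.07 for platelet and 0.40 for erythroid markers. Alternatives were quantile normalisation, a shift to 1 median, the mean or the brightest probe set per gene, array weights, exclusion of genes dimmer than the 30th percentile, trended and robust eBayes, a threshold of 0.10 and omission of each array. Omission of both least correlated arrays, and the pairs, were added after seeing the data.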

Additional observations from a re-analysis of the deposited data

Results flagged for a closer look

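Dixon's test, which by chance picks out a liver in about 1 of 20 groups, was applied to 62 groups of 4 livers and picked out 5, among them 2 of the 20 groups of the TGF-beta ligand, receptor and feedback genes. Tgfbr2 was 10.13 in Tak1/Rip3 replicate 2, above the other 3 livers of its group at 9.95 to 9.96. Tgfbr3 was 8.96 in Tak1/Rip3 replicate 4, above the others at 8.82 to 8.83. For Ripk3 the value of Tak1/Rip3 replicate 1 was 6.36, below the others at 7.04 to 7.18. Junb was 8.39 in Tak1/Casp8 replicate 2, below 8.68 to 8.72 in the others. For Pmepa1 Tak1/Rip3 replicate 1 read 10.32, above 10.23 to 10.25 in the others. The low Tak1/Casp8 replicate 4 was not picked out for any of the 10 genes. This includes Tgfbr3, for which it read 8.22 against 8.71 to 8.93 in the others of its group.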

How the results depend on the processing

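The count of all genes called was 1308, 2130 at an adjusted p under 0.10, 759 with the brightest probe set, and 706 to 1347 with 1 liver left out (706 without Tak1/Rip3 replicate 1, 737 without its replicate 4 and 765 without Tak1/Casp8 replicate 2). Of the 10 TGF-beta genes 0 were called lower, against 2 at an adjusted p under 0.10, 1 with the mean over probe sets (Tgfb3), 2 with the filter at the 30th percentile, 1 with trend and robust settings (Tgfbr1), 2 with array weights and 0 to 1 with a liver left out (Tgfb3 without Tak1/Casp8 replicate 3, Tgfbr1 without its replicate 1). The limma adjusted p of Tgfb3 was 0.0272 with the mean over probe sets, 0.0471 with the filter and 0.0388 with array weights. That of Tgfbr1 was 0.0389 with the filter, 0.0367 with trend and robust settings and 0.0292 with array weights. The filter leaves fewer genes to adjust over, and the cause of the other changes was not tested. Pathway genes called higher were 3, and 5 at 0.10. Those called lower were 4, against 8 at 0.10, 9 with the mean, 7 with array weights and 2 to 5 with a liver left out (2 without Tak1/Rip3 replicate 3 or 4). Among probe sets of the 10 genes 0 were called lower, and 1 at 0.10, with trend and robust settings, or with array weights. Of 37 named genes 26 kept their direction under each of the 16 alternatives. With the brightest probe set the sign turned for Tgfb1 (0.096), Tgfb2 (-0.073), Smad7 (0.041), Skil (0.10), Map3k7 (0.088), Ripk3 (-0.036), Smad6 (-0.312), Acvr2b (-0.021) and Selenon (0.341), and with the mean for Map3k7 (0.094) and Smad6 (-0.133). Smad3 turned under quantile normalisation (0.005), the median shift (0.015), array weights (0.029) and omission of both least correlated livers (0.053). With 1 liver left out the ranges crossed 0 for Tgfb1 (-0.127 to 0.006), Tgfb2 (-0.149 to 0.178), Smad3 (-0.072 to 0.021), Tgfbi (-0.121 to 0.151) and Smad6 (-0.002 to 0.173). No paired analysis was possible because replicate numbers here are names and the labels link no mouse of one group to one of the other. With 4 livers per group and no detection call, values near the lower quartile of an array (6.47 to 6.52) cannot be told from background.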
